A study of Homo sapiens with 4 samples.

Results

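The ATF4 and CHOP genes described here are 37 genes of the amino-acid branch of the cellular stress response. They were chosen by name, with earlier results of these data known. Of the 37 genes, 36 had a probe set with a single gene symbol and 32 reached the brightness minimum on at least 1 array, out of 10823 genes that did so among 18239 measured. The gene GPT2 is not analysed here. RNA came from 4 samples of 2 human mantle cell lymphoma (MCL) cell lines, a B-cell cancer. They were REC-1 exposed to CC-292, REC-1 control, Z138 exposed to CC-292 and Z138 control, with 1 array each and no replicates. CC-292 is an inhibitor of Bruton tyrosine kinase (BTK), which relays the B-cell receptor signal. The labels give 48 h of exposure, and 1 uM in the treatment protocol but 1 mM in the titles of the CC-292 arrays. The Z138 control title names no time, and no label states what the control cultures received. Each line is a single established line, so a difference between REC-1 and Z138 describes these 2 lines.

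ATF4 is a transcription factor whose translation increases when kinases sensing amino-acid shortage, unfolded proteins, haem deficiency or double-stranded RNA phosphorylate the initiation factor eIF2. It pairs with C/EBP proteins and switches on genes that import amino acids, make serine, glycine, asparagine and proline, and charge tRNAs. DDIT3, which encodes CHOP, and the pseudokinase gene TRIB3 are ATF4 targets that act when stress persists. Because ATF4 is controlled largely at translation, the mRNA levels of its targets are often read as its output, and they were the only readout here.

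Values are log2 signals of the brightest probe set of each gene, and differences are CC-292 minus control or REC-1 minus Z138, so that 1 stands for a 2-fold difference. The error given beside a difference is the SD over the probe sets of that gene that reached the minimum of log2 4.63. It holds no error between cultures, which 1 array per group leaves unknown. Where a gene has 1 such probe set, the yardstick is the SD pooled over the genes with several, 0.31 for REC-1, 0.25 for Z138 and 0.48 for the line difference on control arrays. Signals of different probe sets are not compared with each other.

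Promoter stretches are shown for 6 genes of the set because they hold, upstream of the start, the letters to which ATF4 paired with a C/EBP protein is known to bind. The RefSeq promoter windows (GRCh38.p14) reach from 250 bases before to 50 bases after a gene's start, and 29 of the 37 genes matched at least 1 window. The C/EBP-ATF response element was searched as TGATGNAA on both strands, and its match is in capitals. ATF3 is shown from chr1:212565170-212565269 (plus strand), CHAC1 from chr15:40953221-40953315 (plus strand), ASNS from chr7:97872423-97872522 (minus strand) and HERPUD1 from chr16:56931920-56932019 (plus strand). CEBPG is shown from chr19:33374025-33374112 (plus strand) and SLC1A5 from chr19:46784858-46784957 (minus strand). Each is written 5′ to 3′ in the direction of its gene.
ATF3: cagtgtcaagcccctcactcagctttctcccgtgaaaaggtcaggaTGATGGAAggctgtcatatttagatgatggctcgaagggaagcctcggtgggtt
CHAC1: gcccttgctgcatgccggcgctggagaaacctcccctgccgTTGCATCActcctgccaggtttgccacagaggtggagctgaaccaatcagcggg
ASNS: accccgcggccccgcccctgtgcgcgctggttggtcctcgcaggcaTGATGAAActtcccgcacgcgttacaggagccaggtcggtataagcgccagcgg
HERPUD1: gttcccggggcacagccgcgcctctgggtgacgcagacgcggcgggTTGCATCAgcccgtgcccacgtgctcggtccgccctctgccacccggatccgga
CEBPG: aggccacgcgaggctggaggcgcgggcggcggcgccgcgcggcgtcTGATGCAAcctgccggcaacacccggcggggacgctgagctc
SLC1A5: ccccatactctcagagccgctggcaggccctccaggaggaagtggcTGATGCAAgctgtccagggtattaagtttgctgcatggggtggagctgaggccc

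In these 6 stretches the match began at -191 in ATF3, -209 in CHAC1, -68 in ASNS, -176 in HERPUD1, -42 in CEBPG and -97 in SLC1A5, counted from -1 at the base before the start. Another 3 members had a match. That of JDP2 began at -16, and those of SLC7A1 and SLC3A2 lay after the start, beginning at 8 and 38. In all, 9 of 29 genes of the set with a window held the letters (31.0%), against 1217 of 27305 genes in the table (4.46%). By window it was 9 of 47 (19.1%) against 3.62% of all windows. Of those that reached the brightness minimum it was 8 of 27 (29.6%), against 252 of 8975 genes (2.81%). With C in the variable position, TGATGCAA, the share was 5 of 29 (17.2%) against 295 of the 27305 genes (1.08%). The ER stress element, searched as CCAAT and CCACG with 9 free bases between them, had 0 matches among the 29 genes and was found in 0.0916% of the 27305. A match is a description of the letters and does not show that ATF4 bound there in these cells. The genes were chosen by name as ATF4 and CHOP genes, so a share above that of all genes is no independent finding. Letters outside the windows were not searched, so a gene without a match may hold them elsewhere.

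Most genes of the set were lower with CC-292 in REC-1 and slightly higher with CC-292 in Z138. In REC-1, 30 of 32 genes lay below 0, where 57.8% of all 10823 genes did, and their median difference was -0.37 against -0.05 for all genes. In Z138, 26 of 32 lay above 0, where 51.9% of all genes did, with a median of 0.16 against 0.01. The pattern of below 0 in REC-1 and above 0 in Z138 was shown by 24 of 32 genes, against 31.4% of all genes. It was also shown by 63 of the 89 probe sets of the set that reached the minimum (70.8%), against 30.3% of 25733 probe sets. Probe sets of 1 gene share their transcript and are not replicates. In a culture, fewer cells with a transcript and less of it per cell cannot be told apart. Hybridization controls added to every sample had medians on the same side of 0 as the set, over 9 probe sets -0.07 (-0.19 to -0.03) in REC-1 and 0.09 (-0.05 to 0.18) in Z138, and their part in the small differences was not tested.

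**Figure D1:**
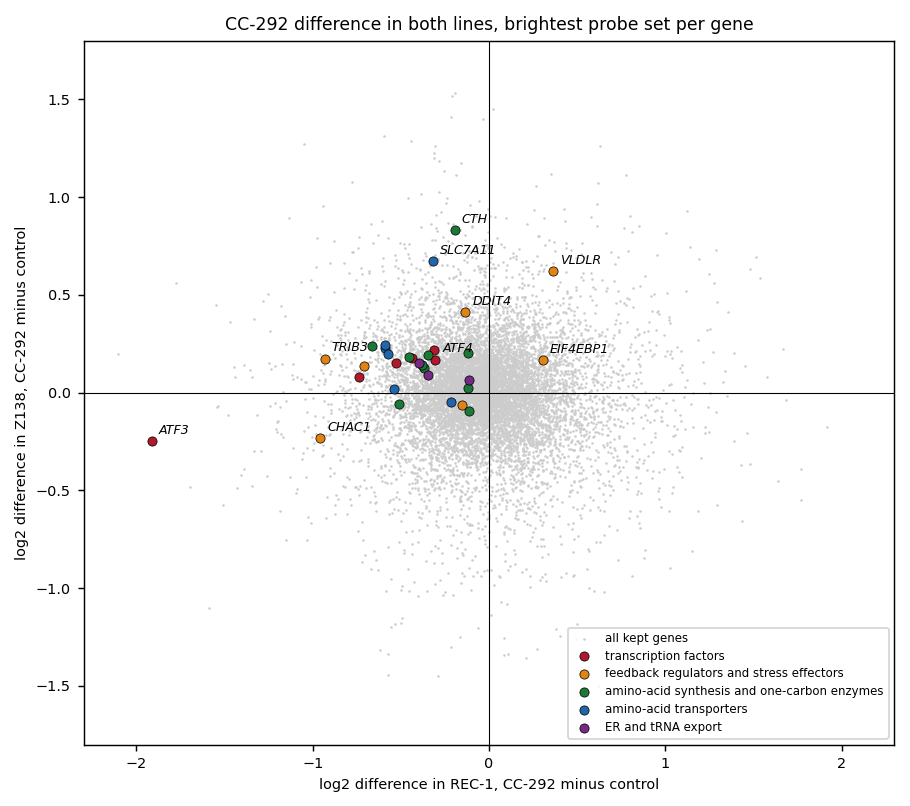
Log2 difference of CC-292 minus control in REC-1 (horizontal) and Z138 (vertical) for 10823 genes in grey and 32 ATF4 and CHOP genes coloured by role, each from 1 array against 1. The coloured points gather at the upper left, a field that holds 24 of the 32, with ATF3 far to the left at -1.91 and CTH highest at 0.83.

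The differences were mostly small. In REC-1, 8 of 32 genes were at least 1.5-fold lower, where 4.73% of all genes were, and only ATF3 was at least 2-fold lower, where 0.758% of all genes were. This count depends on the probe set. With probe sets averaged, ATF3 (-0.54), CHAC1 (-0.51), SLC1A5 (-0.47) and SLC7A5 (0.15) fell short of 1.5-fold. DDIT3 (-0.60), TRIB3 (-0.92) and SESN2 (-0.76) did not, and PHGDH has 1 probe set. In REC-1, 0 genes were 1.5-fold higher, where 4.32% of all genes were, or 2-fold higher, where 0.841% were. In Z138, 3 of 32 were at least 1.5-fold higher, where 2.18% of all genes were, and 0 were 2-fold higher, where 0.213% were. None was 1.5-fold or 2-fold lower in Z138, where 2.52% and 0.351% of all genes were. The REC-1 difference was larger in size than the Z138 difference for 27 of the 32 genes. With 1 array per group, neither difference has a test. The average effect of CC-292 over both lines, the one contrast of the agent that could be tested, passed an adjusted p of 0.05 for 0 of 10823 genes in limma. At an unadjusted p under 0.05 it held 472 genes (4.36%), among them 3 of the set: VLDLR (0.49 ± 0.16 SE), ATF3 (-1.08 ± 0.39) and CHAC1 (-0.59 ± 0.22). All 3 rest on 1 probe set at the minimum, and VLDLR was under the minimum on both REC-1 arrays. Opposite differences in the lines cancel in the average over both lines.

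**Figure D2:**
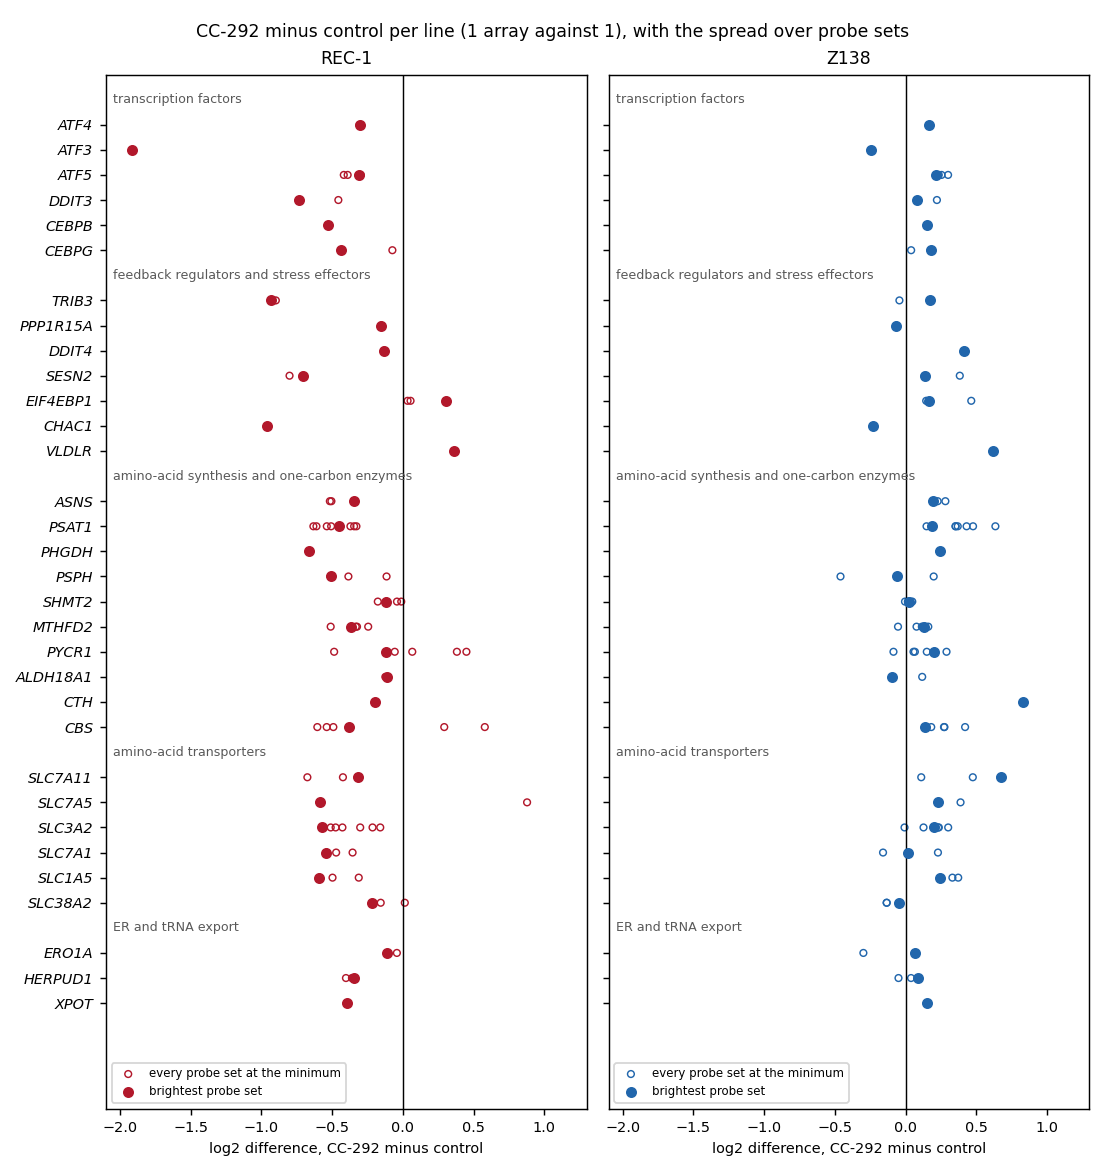
Log2 difference of CC-292 minus control for each of 32 genes by role, REC-1 on the left and Z138 on the right, from 1 array against 1. Filled points are the brightest probe set and open points every probe set that reached the brightness minimum. The filled points lie left of 0 for 30 genes in REC-1 and right of 0 for 26 genes in Z138, and the points of SLC7A5, CBS, PYCR1 and SLC38A2 lie on both sides of 0 in REC-1.

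Among the transcription factors, all 6 measured genes were lower with CC-292 in REC-1 (median -0.48), and 5 of 6 were higher with CC-292 in Z138 (median 0.16). ATF4 itself had log2 signals of 11.61 (CC-292) and 11.92 (control) in REC-1, and 12.47 (CC-292) and 12.30 (control) in Z138. Its difference was thus -0.31 in REC-1 and 0.17 in Z138, both within the pooled SD between probe sets. ATF5, a relative of ATF4 that acts in mitochondrial stress, had signals of 10.39 (CC-292) and 10.70 (control) in REC-1, and 11.58 (CC-292) and 11.37 (control) in Z138. It differed by -0.31 (SD 0.06 over 4 probe sets) in REC-1 and 0.22 (SD 0.04) in Z138, where its probe sets agreed closely in both lines.

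DDIT3 had signals of 6.10 (CC-292) and 6.84 (control) in REC-1, and 6.55 (CC-292) and 6.47 (control) in Z138. The REC-1 CC-292 array was the lowest of the 4, with a difference of -0.74 (SD 0.20 over 2 probe sets), or 1.67-fold, against 0.08 (SD 0.10) in Z138. ATF3, an early stress-induced repressor of the same family, showed the widest gap. Its signals were 4.72 (CC-292) and 6.63 (control) in REC-1, and 5.84 (CC-292) and 6.08 (control) in Z138. The REC-1 CC-292 array lay close to the brightness minimum, and its difference of -1.91 came from 1 probe set. The other 6 probe sets of ATF3 stayed under the minimum, between -0.48 and -0.10 in REC-1 and between -0.69 and 0.11 in Z138. The mean over all 7, which includes the first, was -0.54 in REC-1.

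The partner genes CEBPB and CEBPG, whose proteins pair with ATF4, completed the group. CEBPB was at -0.53 in REC-1 and 0.15 in Z138 on 1 probe set, with CEBPG at 8.51 (CC-292) and 8.95 (control) in REC-1, and 9.78 (CC-292) and 9.60 (control) in Z138. CEBPG differed by -0.44 (SD 0.26 over 2 probe sets) in REC-1 and 0.18 (SD 0.10) in Z138. The stress cofactor gene NUPR1 and the ATF3 relative JDP2 did not reach the minimum on any array. JDP2 had dim signals of 4.45 (CC-292) and 3.42 (control) in REC-1, and 4.09 (CC-292) and 3.45 (control) in Z138. Those of NUPR1 were 3.03 (CC-292) and 3.71 (control) in REC-1, and 3.87 (CC-292) and 3.58 (control) in Z138. Nonspecific background probes had medians of 3.06 to 3.12, so the sizes of these differences carry little meaning.

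**Figure D3:**
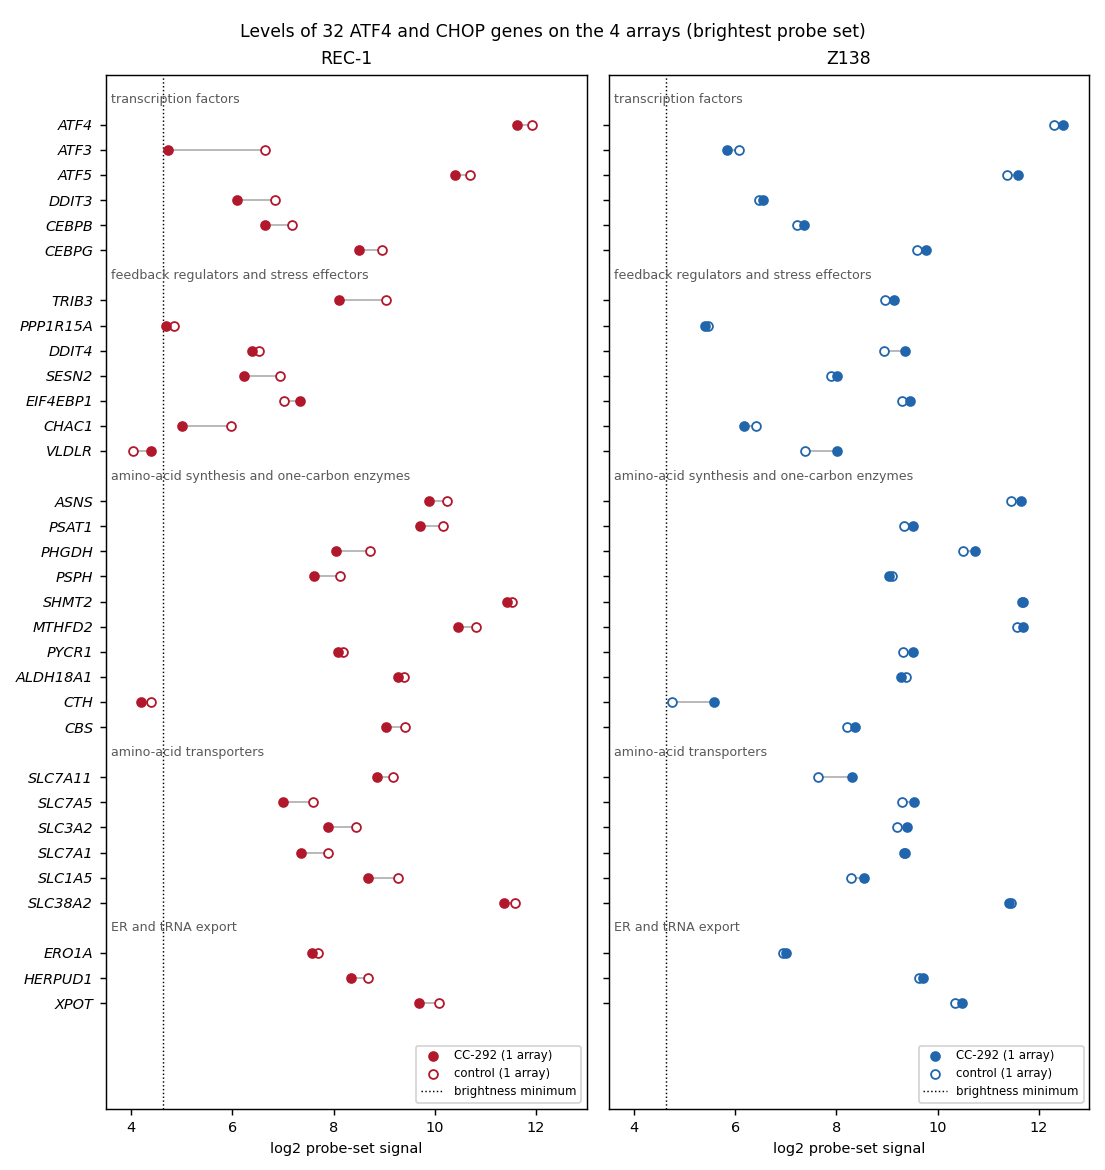
Log2 signal of the brightest probe set of 32 genes by role on the 4 arrays, REC-1 on the left and Z138 on the right. Filled points are the CC-292 array, open points the control array and the dotted line the brightness minimum of 4.63. In REC-1 the filled point lies left of the open one for 30 genes, and CTH and VLDLR lie under the minimum on both REC-1 arrays.

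The feedback regulators and stress effectors were split. TRIB3, which binds ATF4 and restrains it, had signals of 8.10 (CC-292) and 9.03 (control) in REC-1, and 9.14 (CC-292) and 8.97 (control) in Z138. The other 3 arrays lay close together and the REC-1 CC-292 array stood below them, by -0.93 (SD 0.02 over 2 probe sets) against its control. CHAC1, an enzyme that breaks down glutathione and a target of ATF4, had signals of 5.01 (CC-292) and 5.97 (control) in REC-1, and 6.18 (CC-292) and 6.41 (control) in Z138. It was lower with CC-292 in both lines, 1.94-fold in REC-1 and 1.17-fold in Z138, on 1 probe set. With its dim second probe set averaged in, the REC-1 difference was -0.51 and that in Z138 0.04.

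SESN2, a leucine sensor that holds back the growth kinase complex mTORC1, had signals of 6.24 (CC-292) and 6.95 (control) in REC-1, and 8.02 (CC-292) and 7.89 (control) in Z138. Its REC-1 difference of -0.71 (SD 0.07 over 2 probe sets) was among the larger ones of the set, and both REC-1 arrays lay below both Z138 arrays. The exceptions of this group were 2 genes that were higher with CC-292 in both lines. VLDLR, a lipoprotein receptor gene induced by ATF4, had signals of 4.40 (CC-292) and 4.04 (control) in REC-1, and 8.01 (CC-292) and 7.38 (control) in Z138. It was under the minimum on both REC-1 arrays, so its REC-1 difference of 0.36 is that of a dim probe set, while in Z138 it was 1.54-fold higher. EIF4EBP1, a repressor of cap-dependent translation, had signals of 7.33 (CC-292) and 7.03 (control) in REC-1, and 9.46 (CC-292) and 9.29 (control) in Z138. All 3 of its probe sets lay above 0 in both lines.

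DDIT4, another mTORC1 inhibitor gene, had signals of 6.39 (CC-292) and 6.53 (control) in REC-1, and 9.36 (CC-292) and 8.95 (control) in Z138. The lines were far apart, and within them the differences were -0.13 in REC-1 and 0.41 in Z138. PPP1R15A, which recruits the phosphatase that reverses eIF2 phosphorylation, was dim and differed by -0.15 in REC-1 and -0.07 in Z138. STC2, a secreted stress protein gene, stayed under the minimum on every array, and its 3 probe sets differed in sign in REC-1.

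The enzymes of amino-acid synthesis and one-carbon metabolism were all lower with CC-292 in REC-1, 10 of 10 with a median of -0.36, and 8 of 10 were higher with CC-292 in Z138 (median 0.16). For the serine pathway, PHGDH, the first enzyme, had signals of 8.05 (CC-292) and 8.71 (control) in REC-1, and 10.74 (CC-292) and 10.49 (control) in Z138. It differed by -0.66 in REC-1, the largest of this group, and by 0.24 in Z138. PSAT1, the second enzyme, had signals of 9.71 (CC-292) and 10.16 (control) in REC-1, and 9.52 (CC-292) and 9.34 (control) in Z138. All 8 of its probe sets lay below 0 in REC-1, between -0.63 and -0.33, and all 8 above 0 in Z138, between 0.15 and 0.64. Both genes thus lay on opposite sides of 0 in the lines. PSPH, the last enzyme, had signals of 7.61 (CC-292) and 8.13 (control) in REC-1, and 9.04 (CC-292) and 9.10 (control) in Z138. It was at -0.51 (SD 0.20 over 3 probe sets) in REC-1 and -0.06 (SD 0.33) in Z138. A pseudogene copy, PSPHP1, is annotated in RefSeq, so the signal of PSPH is uncertain.

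ASNS, which makes asparagine and whose promoter stretch is shown above, had signals of 9.89 (CC-292) and 10.24 (control) in REC-1, and 11.64 (CC-292) and 11.45 (control) in Z138. Its 4 probe sets lay between -0.52 and -0.35 in REC-1 and between 0.19 and 0.28 in Z138, on opposite sides of 0 without exception. The mitochondrial folate enzyme gene MTHFD2 had signals of 10.45 (CC-292) and 10.82 (control) in REC-1, and 11.70 (CC-292) and 11.57 (control) in Z138. It was at -0.37 (SD 0.10 over 5 probe sets) in REC-1 and 0.13 (SD 0.08) in Z138. SHMT2, which feeds that pathway, differed little, by -0.12 (SD 0.07 over 4 probe sets) in REC-1 and 0.02 (SD 0.02) in Z138. ALDH1L2 of the same pathway was under the minimum on every array.

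Of the proline genes, ALDH18A1 differed by -0.12 (SD 0.01 over 2 probe sets) in REC-1 and -0.09 (SD 0.15) in Z138. PYCR1 had signals of 8.08 (CC-292) and 8.19 (control) in REC-1, and 9.52 (CC-292) and 9.32 (control) in Z138. It was at -0.12 in REC-1, but 3 of its 6 probe sets lay above 0 (SD 0.35), and at 0.20 (SD 0.13) in Z138. For cysteine synthesis from methionine, CTH had signals of 4.19 (CC-292) and 4.39 (control) in REC-1, and 5.59 (CC-292) and 4.76 (control) in Z138. Only the Z138 CC-292 array stood clear of the minimum, 1.78-fold above its control, on 1 probe set. CBS, the step before it, had signals of 9.04 (CC-292) and 9.42 (control) in REC-1, and 8.36 (CC-292) and 8.22 (control) in Z138. In REC-1, 4 of its 6 probe sets lay below 0, all of them brighter over the 4 arrays than the 2 above 0, and in Z138 all 6 lay above 0.

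On the brightest probe sets, the amino-acid transporters had the lowest median of the groups in REC-1, -0.56, with 6 of 6 below 0. In Z138, 5 of 6 were above 0 (median 0.21). Averaged over probe sets at the minimum, REC-1 differences were 0.15 (SLC7A5), -0.38 (SLC3A2), -0.47 (SLC7A11), -0.47 (SLC1A5), -0.46 (SLC7A1) and -0.12 (SLC38A2). The order of the groups was not compared on such averages. SLC7A5 and SLC3A2 encode the light and heavy chains of the exchanger that imports leucine. SLC3A2 had signals of 7.88 (CC-292) and 8.45 (control) in REC-1, and 9.40 (CC-292) and 9.20 (control) in Z138. It differed by -0.57 (SD 0.16) in REC-1, with all 7 probe sets below 0, and by 0.20 (SD 0.10) in Z138, with 6 of 7 above 0. SLC7A5 had signals of 6.99 (CC-292) and 7.58 (control) in REC-1, and 9.53 (CC-292) and 9.31 (control) in Z138. Its 2 probe sets disagreed in REC-1, -0.59 on the brighter and 0.88 on the dimmer, and their mean of 0.15 reverses the direction, so the direction of SLC7A5 in REC-1 rests on the choice of probe set.

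SLC7A11, the cystine importer gene that supplies glutathione synthesis, had signals of 8.86 (CC-292) and 9.18 (control) in REC-1, and 8.30 (CC-292) and 7.63 (control) in Z138. All 3 probe sets lay below 0 in REC-1 (SD 0.18) and above 0 in Z138, where the difference of 0.67 (SD 0.28), or 1.59-fold, was the largest among the transporters. SLC1A5, the glutamine importer gene, had signals of 8.68 (CC-292) and 9.27 (control) in REC-1, and 8.54 (CC-292) and 8.30 (control) in Z138. It was 1.51-fold lower in REC-1 on the brightest of 3 probe sets, which all lay below 0 (SD 0.14), and at 0.24 (SD 0.07) in Z138. SLC7A1, a carrier of arginine and lysine, had signals of 7.35 (CC-292) and 7.89 (control) in REC-1, and 9.35 (CC-292) and 9.34 (control) in Z138. It was at -0.54 (SD 0.09 over 3 probe sets) in REC-1 and 0.02 (SD 0.19) in Z138. SLC38A2, which takes up small neutral amino acids, was at -0.22 (SD 0.12 over 3 probe sets) in REC-1 and -0.05 (SD 0.05) in Z138.

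The remaining genes serve the endoplasmic reticulum (ER) and tRNA export. HERPUD1, which helps degrade misfolded ER proteins, had signals of 8.34 (CC-292) and 8.69 (control) in REC-1, and 9.72 (CC-292) and 9.63 (control) in Z138. It was at -0.35 (SD 0.03 over 3 probe sets) in REC-1 and 0.09 (SD 0.07) in Z138. The tRNA exporter gene XPOT was at -0.40 in REC-1 and 0.15 in Z138 on 1 probe set. ERO1A, an ER oxidase gene, differed by -0.11 (SD 0.05 over 2 probe sets) in REC-1 and 0.06 (SD 0.26) in Z138. All 3 were thus below 0 in REC-1 and above 0 in Z138 on the brightest probe set.

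Set against the promoter letters, the 8 measured genes with a match in their windows were all below 0 in REC-1, with a median of -0.56 and a range of -1.91 to -0.35. The 19 genes with a window and no match had a median of -0.37, with 18 of 19 below 0, and the 5 genes with no window in the table had a median of -0.12. In Z138 the medians were 0.13 with a match, 0.15 without a match and 0.17 without a window. These are descriptions of few genes from 1 array per group.

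The lines themselves differed in these genes. In limma, with the agent as the other term and 2 arrays per line, 22 of 32 genes passed an adjusted p of 0.05, where 44.7% of all genes did. Of these, 19 were lower in REC-1, where 23.1% of all genes were, and 3 were higher in REC-1, where 21.7% were. The 19 include VLDLR and CTH, which reached the brightness minimum only on the Z138 arrays. The p-values of this fit rest on how far the REC-1 minus Z138 difference varied between the CC-292 and the control arrays. They have 1 residual degree of freedom per gene beside a prior of 4.51 estimated from all genes. The 2 arrays of a line received different treatment and the labels do not say whether they came from separate cultures or experiments.

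**Figure D4:**
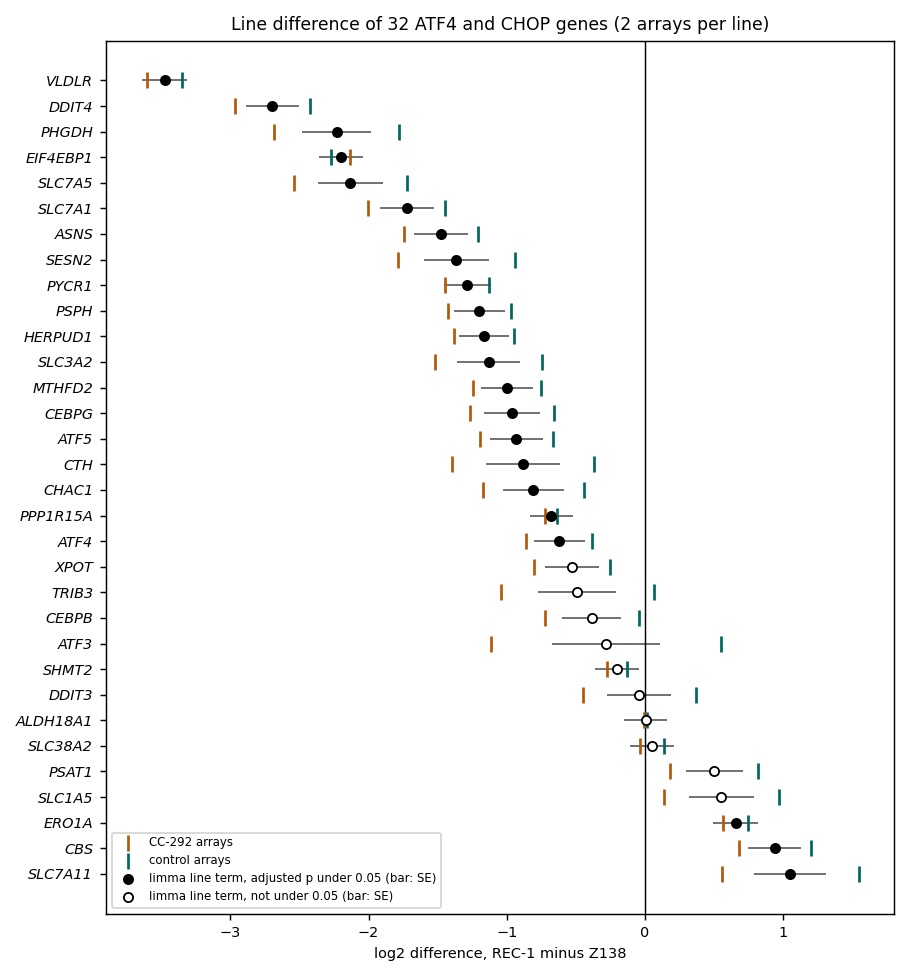
Log2 difference of REC-1 minus Z138 for 32 genes, ordered by the limma line term (points, with its SE as bars, 2 arrays per line). Filled points passed an adjusted p of 0.05, and ticks give the difference on the CC-292 arrays and on the control arrays alone. The filled points lie left of 0 for 19 genes and right of 0 for 3, and for 31 of 32 genes the CC-292 tick lies left of the control tick. VLDLR and CTH are drawn at their measured values, which are under the minimum on both REC-1 arrays.

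Large line differences lay among the stress effectors. VLDLR was under the minimum on both REC-1 arrays and passed the brightness filter through Z138, so its line difference has only a bound. It was at least 8.35-fold lower in REC-1, the Z138 mean of 7.69 against the minimum of 4.63 (measured REC-1 mean 4.22). CTH, dim in REC-1 in the same way, was at least 1.45-fold lower. That both passed in limma rests on the measured REC-1 values and does not test these bounds. DDIT4 was 6.48-fold lower (-2.70 ± 0.19 SE, adjusted p = 0.000376) and EIF4EBP1 4.60-fold lower (-2.20 ± 0.16, adjusted p = 0.000372). SESN2 was 2.57-fold lower (-1.36 ± 0.24, adjusted p = 0.00694). All 6 of the stress effectors that passed, VLDLR among them, were lower in REC-1.

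Among the enzymes, PHGDH was 4.70-fold lower in REC-1 (-2.23 ± 0.25, adjusted p = 0.00155), ASNS 2.78-fold lower (-1.48 ± 0.19, adjusted p = 0.00270) and PYCR1 2.44-fold lower (-1.29 ± 0.17, adjusted p = 0.00277). PSPH was lower by a size that depended on the probe set, from -0.97 to -3.00 on the control arrays. The leucine exchanger gene SLC7A5 was 4.38-fold lower (-2.13 ± 0.23, adjusted p = 0.00149) on a line difference that its 2 probe sets shared. SLC7A1 was 3.30-fold lower (-1.72 ± 0.20, adjusted p = 0.00168).

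Only 3 genes passed as higher in REC-1, namely SLC7A11 (1.05 ± 0.26 SE, adjusted p = 0.0234), CBS (0.94 ± 0.19, adjusted p = 0.0118) and ERO1A (0.66 ± 0.16, adjusted p = 0.0216). SLC7A11 and CBS act in the supply of cysteine. The 2 probe sets of ERO1A differed on the control arrays, at 0.74 on the brighter and 0.04 on the dimmer (SD 0.50). PSAT1 (0.50 ± 0.21, adjusted p = 0.101) and SLC1A5 (0.55 ± 0.24, adjusted p = 0.112) were also above 0 but did not pass. They passed with the mean of probe sets (adjusted p = 0.0424 and 0.0391) and with an intensity trend (adjusted p = 0.00186 and 0.00382).

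The 3 transcription factor genes that passed were all lower in REC-1, ATF5 (-0.93 ± 0.19 SE, adjusted p = 0.0124), CEBPG (-0.96 ± 0.20, adjusted p = 0.0134) and ATF4 (-0.62 ± 0.19, adjusted p = 0.0414). ATF4 was at -0.38 on the control arrays, within the pooled SD of 0.48, and at -0.86 on the CC-292 arrays. It no longer passed without the brightness filter (adjusted p = 0.0655 in limma). CEBPG no longer passed with the mean of probe sets (adjusted p = 0.158), where its second probe set lay above 0. DDIT3 (adjusted p = 0.899), ATF3 (adjusted p = 0.593) and TRIB3 (adjusted p = 0.215) were above 0 on the control arrays, at 0.37, 0.55 and 0.06, and below 0 on the CC-292 arrays, at -0.45, -1.12 and -1.04. On the control arrays TRIB3 was thus within the SD of its 2 probe sets (0.18), and DDIT3 beyond that of its own 2 (0.13). ATF3, on 1 probe set, was just above the pooled SD of 0.48.

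On the CC-292 arrays, 19 of 32 genes were at least 2-fold lower in REC-1 than in Z138, where 13.3% of all genes were, and 0 were 2-fold higher, where 12.0% were. Below 0 were 27 of 32 (52.1% of all genes), and 1 was 1.5-fold higher (20.5%). On the control arrays 8 of 32 were 2-fold lower, where 12.4% of all genes were, and 2 were 2-fold higher (SLC7A11 and CBS), where 11.9% were. At 1.5-fold, 16 were lower (21.7% of all genes) and 5 higher (22.2%), and 22 of 32 were below 0 (48.9%). VLDLR and CTH, dim in REC-1, count among the 19 on the CC-292 arrays, and VLDLR among the 8 on the control arrays. The median line difference was -1.18 on the CC-292 arrays and -0.54 on the control arrays, against -0.03 and 0.02 for all genes. The difference of the CC-292 differences, REC-1 minus Z138, was below 0 for 31 of 32 genes (56.9% of all genes), with EIF4EBP1 as the exception at 0.14. These signs are those of the brightest probe sets. Of the probe sets of EIF4EBP1, 2 lay below 0 and 1 above. Those of PYCR1, CBS, PSPH, SLC7A5, SLC38A2 and ERO1A lay on both sides of 0. The difference of differences was at least 2-fold for ATF3 (-1.67), TRIB3 (-1.11) and CTH (-1.03), where 2.04% of all genes were that low. It was at least 1.5-fold for 14 genes (8.81%). ATF3 rests on 1 probe set, and its dimmer ones, under the minimum, ranged from -0.58 to 0.21. The second probe set of TRIB3 gave -0.85, and CTH rests on 1 probe set under the minimum on both REC-1 arrays. The hybridization controls had a median of -0.20 on this scale, against -0.55 for the set. No degree of freedom is left to test it.

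Related lists, chosen for their place in the pathway, placed these values in context. Over all genes, 57.8% were below 0 in REC-1 and 51.9% above 0 in Z138. Of 12 tRNA synthetase genes, many of which ATF4 induces, 11 (91.7%) were below 0 in REC-1 (median -0.30), among them MARS1 at -0.50 (SD 0.17 over 5 probe sets) and GARS1 at -0.42 (SD 0.06 over 2). In Z138, 8 of 12 (66.7%) were above 0 (median 0.06). Genes of the ATF6 and XBP1 branches, which raise ER folding capacity, were below 0 in 13 of 19 cases (68.4%) in REC-1 (median -0.31) and above 0 in 18 of 19 (94.7%) in Z138 (median 0.20). SEC24D, an ER export coat gene, was at -0.82 (SD 0.55 over 3 probe sets) in REC-1 and 0.36 in Z138, and the factor gene XBP1 at -0.59 in REC-1 and 0.28 in Z138. The factor gene ATF6, named after its values were seen, was at 0.48 (SD 0.32 over 3 probe sets) in REC-1, the highest of the 19, and 0.05 in Z138. The ER chaperone gene HSPA5, also named afterwards, was at 0.00 in REC-1 and 0.11 in Z138.

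**Figure D5:**
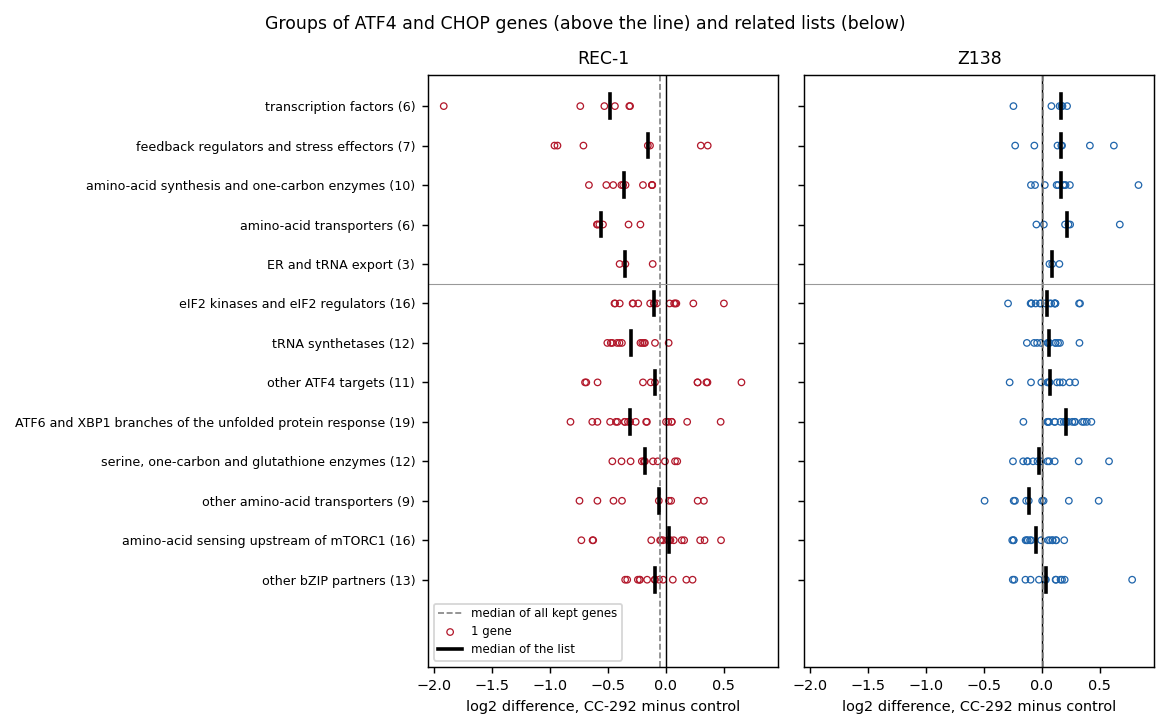
Log2 difference of CC-292 minus control for the 5 groups of ATF4 and CHOP genes (above the grey line) and 8 related lists (below it), with the number of genes in brackets, REC-1 on the left and Z138 on the right. Each circle is 1 gene by its brightest probe set, the black bar the median of the list and the dashed line the median of all genes. In REC-1 the medians reach from -0.56 for the amino-acid transporters to 0.03 for amino-acid sensing upstream of mTORC1, and in Z138 from -0.11 to 0.21.

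Genes upstream of ATF4 were split in direction. Of 16 eIF2 kinase and eIF2 regulator genes, 10 (62.5%) were below 0 in REC-1 (median -0.10) and 9 (56.2%) above 0 in Z138 (median 0.05), both near the shares of all genes. EIF2AK4, which encodes the amino-acid sensing kinase GCN2, was at 0.50 in REC-1 and 0.32 in Z138 on 1 probe set. Between lines, EIF2AK3, which encodes the ER stress kinase PERK, was lower in REC-1 (-1.43 ± 0.16 SE, adjusted p = 0.00148 in limma), and EIF2AK4 was higher (1.03 ± 0.16, adjusted p = 0.00469). Of 11 other ATF4 targets, 6 (54.5%) were below 0 in REC-1 (median -0.09) and 5 above, near the 57.8% of all genes below 0. In Z138, 8 of 11 (72.7%) were above 0 (median 0.07), against 51.9% of all genes. Those below 0 in REC-1 included the folate enzyme gene MTHFD1L at -0.70 (SD 0.07 over 4 probe sets), the mitochondrial carboxykinase gene PCK2 at -0.68 (SD 0.63 over 2 probe sets) and the glycine carrier gene SLC6A9 at -0.59 (SD 0.19 over 2 probe sets). The death receptor gene TNFRSF10B, a CHOP target, was at 0.65 (SD 0.39 over 2 probe sets) in REC-1 and -0.28 in Z138. In the line fit 7 of the 11 were lower in REC-1, where 23.1% of all genes were, led by PCK2 (-2.37 ± 0.24, adjusted p = 0.00110), and 1 was higher, where 21.7% were.

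The 4 arrays had near-equal medians (log2 4.63 to 4.64), so a shift of most genes together would not show. Between lines the hybridization controls lay above 0, at 0.17 on the CC-292 and 0.33 on the control arrays, opposite to the median of the set. ACTB, read at both transcript ends, had a 3' minus 5' gap (larger when RNA is degraded) of 0.53 (CC-292) and 0.77 (control) in REC-1, and 1.11 (CC-292) and 1.12 (control) in Z138, and its part in the differences was not tested. The same gap of GAPDH was -0.31 (CC-292) and -0.32 (control) in REC-1, and -0.24 (CC-292) and -0.28 (control) in Z138. Of 8 measured B-cell and MCL markers, CCND1, MS4A1 and SOX11 among them, 8 reached the minimum on both REC-1 arrays, 7 on the Z138 CC-292 array and 8 on the Z138 control array. None of 6 myeloid markers reached it on any array, while 3 of 7 T and NK markers, 1 of 2 measured erythroid markers and 4 of 4 stromal and epithelial markers did on at least 1.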

How the data were processed

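RNA from 4 samples was hybridised to Affymetrix arrays, 1 per group. Trizol-extracted RNA, 150 ng per array, was turned into biotinylated cRNA, per the labels' protocols. Deposited were log2 signals per probe set, made by the authors with RMA in Affymetrix Expression Console 1.1, per the submitters' processing notes. No setting or genome build is stated for them, and the values' range fits a log2 scale.

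Of 49386 probe sets, 45259 had 1 symbol in the platform annotation, checked through Entrez identifiers against RefSeq (GRCh38.p14), where no symbol changed. A gene was represented by its brightest probe set over the 4 arrays, and kept if its highest value reached the median of all values (log2 4.63). The number of arrays limits the precision, and arrays have no depth. limma 3.58.1 in R 4.3.3 (lmFit, eBayes, terms for line and agent, Benjamini-Hochberg over 10823 genes) tested the agent averaged over lines and the line averaged over agents. Single-line differences have no test. Python 3.11.15, numpy 2.4.6, pandas 2.3.3 and matplotlib 3.10.9 did the rest.

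The genes and lists were chosen with earlier results of these data known. All 37 genes are accounted for. Genes at least 1.5-fold different with CC-292 in a line or 2-fold between lines, and ATF4, DDIT3, ATF3 and TRIB3 in any case, were named with their values, and up to 4 genes per related list and comparison. Alternatives were the brightness filter, scaling (median centring, quantile, cyclic loess), the choice of probe set, fold thresholds, an intensity trend and a fit without the other term.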

Additional observations from a re-analysis of the deposited data

Results flagged for a closer look

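The CC-292 difference had opposite directions in the lines, with a gap of at least 2-fold, for TRIB3 and CTH. This was not tested because each line has 1 CC-292 and 1 control array, and the share of all genes with both features was not counted. By the gap alone, 3 of 32 genes of the set were at least 2-fold lower, against 2.04% of all genes. TRIB3 was lower with CC-292 in REC-1 (-0.93) and higher with CC-292 in Z138 (0.17), a difference of differences of -1.11. Its second probe set gave -0.90 in REC-1 and -0.04 in Z138, both below 0, and a difference of differences of -0.85, under 2-fold. CTH was at -0.20 in REC-1, where it was under the brightness minimum on both arrays, and at 0.83 in Z138, a difference of differences of -1.03. The median difference of differences over the 32 genes was -0.55.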

How the results depend on the processing

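The median of the set kept its direction in all 5 comparisons under each of the 7 alternatives. In REC-1 it was -0.32 with cyclic loess. The difference of differences was -0.47 with cyclic loess and -0.46 with the mean of probe sets. On the control arrays (REC-1 minus Z138) it was -0.38 without a filter, -0.65 with the 70th percentile as minimum and -0.38 with the mean of probe sets, and on the CC-292 arrays -1.08 without a filter and -0.83 with the mean of probe sets. Counts of genes at least 2-fold lower in REC-1 with CC-292 were 0 when probe sets were averaged and 0 when the one of median difference was taken, where ATF3 was at -0.54 and -0.42, and 1 dim gene, JDP2, was 2-fold higher without a filter. SLC7A5 reversed in REC-1 with the mean of its probe sets (0.15). At 1.5-fold in place of 2-fold, 8 genes were lower in REC-1, 3 were higher in Z138 and 14 were lower in the difference of differences (1 at 3-fold). At 1.5-fold between control arrays, 16 were lower and 5 higher in REC-1 (5 and 0 at 3-fold), and 4 were 2-fold higher with the mean of probe sets. On the CC-292 arrays, 1 was higher at 1.5-fold and 8 lower at 3-fold. In the line fit, 5 genes were higher with averaged probe sets and 5 under an intensity trend, against 3. CHAC1 no longer passed with the mean of probe sets (adjusted p = 0.0997 in limma) or without the agent term (0.0943), nor CTH without a filter (0.0525), with quantile normalization (0.0508) or without the agent term (0.0535). XPOT passed with the 70th percentile as minimum (0.0397), with averaged probe sets (0.0446) and under an intensity trend (0.000458), and TRIB3 under that trend (0.0142). The count of 0 genes for the agent held under all 7 alternatives run. Apart from the settings' own construction, the cause was not tested. Each of the 4 groups has 1 array, so none could be left out. Cell line was the block in the fit of the agent, and without it 0 genes passed too. Beyond that, the labels give no replicate numbers to pair samples by.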

Other observations

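Of the related lists, the genes with the largest line terms included some that act in amino-acid use. In limma, the arginine synthesis gene ASS1 was lower in REC-1 (-4.72 ± 0.26 SE, adjusted p = 0.000148), and GCLC, the rate-limiting enzyme gene of glutathione synthesis, was higher (1.84 ± 0.17, adjusted p = 0.000869). The Rag GTPase gene RRAGA, which brings mTORC1 to the lysosome, was lower in REC-1 (-3.27 ± 0.17, adjusted p = 0.000122) on 1 probe set. The growth arrest gene GADD45A was higher in REC-1 (4.90 ± 0.16, adjusted p = 5.9e-05) on 1 probe set. It differed by 0.28 and 0.29 with CC-292 in REC-1 and Z138.

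With CC-292, 10 of 12 other serine, one-carbon and glutathione enzyme genes (83.3%) were below 0 in REC-1 (median -0.18), against 57.8% of all genes. In Z138, 7 of 12 (58.3%) were below 0 (median -0.02), against 48.1% of all genes. ASS1 was at -0.38 (SD 0.18 over 2 probe sets) in REC-1 and 0.58 in Z138. Other amino-acid transporters had medians of -0.06 in REC-1 and -0.11 in Z138 over 9 genes, and amino-acid sensing genes upstream of mTORC1 0.03 and -0.05 over 16 genes. Among the latter, TSC2 was at -0.73 in REC-1 and 0.19 in Z138 on 1 probe set. Other bZIP partner genes had medians of -0.09 and 0.03 over 13 genes. The dim CEBPD was at 0.78 in Z138, where both arrays were under the minimum (4.44 with CC-292, 3.66 control).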
